A study of Mus musculus with 4 samples.

Results

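The genes of the DNA replication machinery were followed in RNA sequencing of fetal liver cells from mice labelled hnRNP L -/- (KO, n = 2) and mice labelled wild type (WT, n = 2). The members were 45 genes named for their role in replication, from origin licensing to nucleotide supply and chromatin assembly, out of 22011 genes in the files. All 45 were found, 2 of them (Orc1l and Orc2l) under the symbols Orc1 and Orc2, and all 45 passed the filter on low counts. Each gene is represented by 1 transcript, the one on which the 4 libraries together had most reads. hnRNP L (heterogeneous nuclear ribonucleoprotein L) binds RNA and regulates splicing. Among the stocks bought or kept, the labels name C57BL/6 and CD45.1 mice, the reporter strain Gt(ROSA)26Sortm4(ACTB-tdTomato,-EGFP)Luo, plus LckCre transgenic mice, but tie none of these to the livers. The sources used here give neither the kind of deletion, nor any Cre that made it, nor the age of the embryos. Separate litters are not stated either, so p-values reflect only how far these 4 libraries varied.

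Before a cell copies its DNA, the origin recognition complex, Cdc6 and Cdt1 load the ring of Mcm2 to Mcm7 onto origins, a step called licensing. The kinase Cdc7 with its partner Dbf4, Mcm10 and the GINS complex then turn the loaded ring into a moving helicase. DNA polymerase alpha with its primase starts each strand, polymerases epsilon and delta extend it on the sliding clamp Pcna, and new histones are placed behind the fork. Most of these genes are transcribed as cells enter S phase, many of them through E2F transcription factors. Blood forms mainly in the liver during much of fetal life, and the erythroid progenitors there divide rapidly.

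All 45 genes had a negative fitted log2 fold change of KO over WT, and 35 of them passed the test as lower in KO livers, while 0 passed as higher. For Pold1 and Pole the fitted value was almost flat, at -0.00097 and -0.02. Over all 15029 genes tested, 20.8% passed in either direction, 9.44% as lower and 11.4% as higher (edgeR quasi-likelihood test, Benjamini-Hochberg adjusted p under 0.05). The median log2 fold change of the 45 genes was -0.56, beside 0.02 over all genes tested. The 35 genes fell to between 77.4% (Rfc5) and 48.3% (Rfc2) of WT. In 41 of the 45, both KO livers lay below both WT livers, an arrangement found in 31.7% of all genes tested (65.2% when either direction is counted). The other 4 were Mcm7, Pold1, Pole and Lig1. Fewer replicating cells and less of these RNAs per cell cannot be told apart in bulk samples.

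The sum of all 45 genes was 6518 and 6254 CPM in KO livers and 8538 and 9655 CPM in WT livers, in reads per 1e+06 reads of library size (CPM), with library sizes scaled by the trimmed mean of M values. The groups did not overlap in this sum, and WT replicate 2 was the highest library. WT replicate 2 was above WT replicate 1 for 32 of the 45 genes, and KO replicate 2 was below KO replicate 1 for 34. These orders were not counted over all genes tested, so they are not shown to be particular to these genes. Fewer of the 45 genes were called lower whichever library was left out, and the same held over all genes tested. Leaving out KO replicate 2 cost the most of these calls and leaving out KO replicate 1 the fewest, among the 45 genes and over all genes alike. The median log2 fold change of the 45 genes lay between -0.64 and -0.48 in these 4 fits. With library sizes set by total reads alone, 25 of the 45 genes were called lower (Orc2, Mcm6, Dbf4, Prim1, Rfc5, Pcna, Rpa1, Rrm2, Dut and Chaf1a were lost) and 43 of 45 had a negative fold change, and over all genes 949 were called lower and 2376 higher, in place of 1419 lower and 1708 higher.

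**Figure D1:**
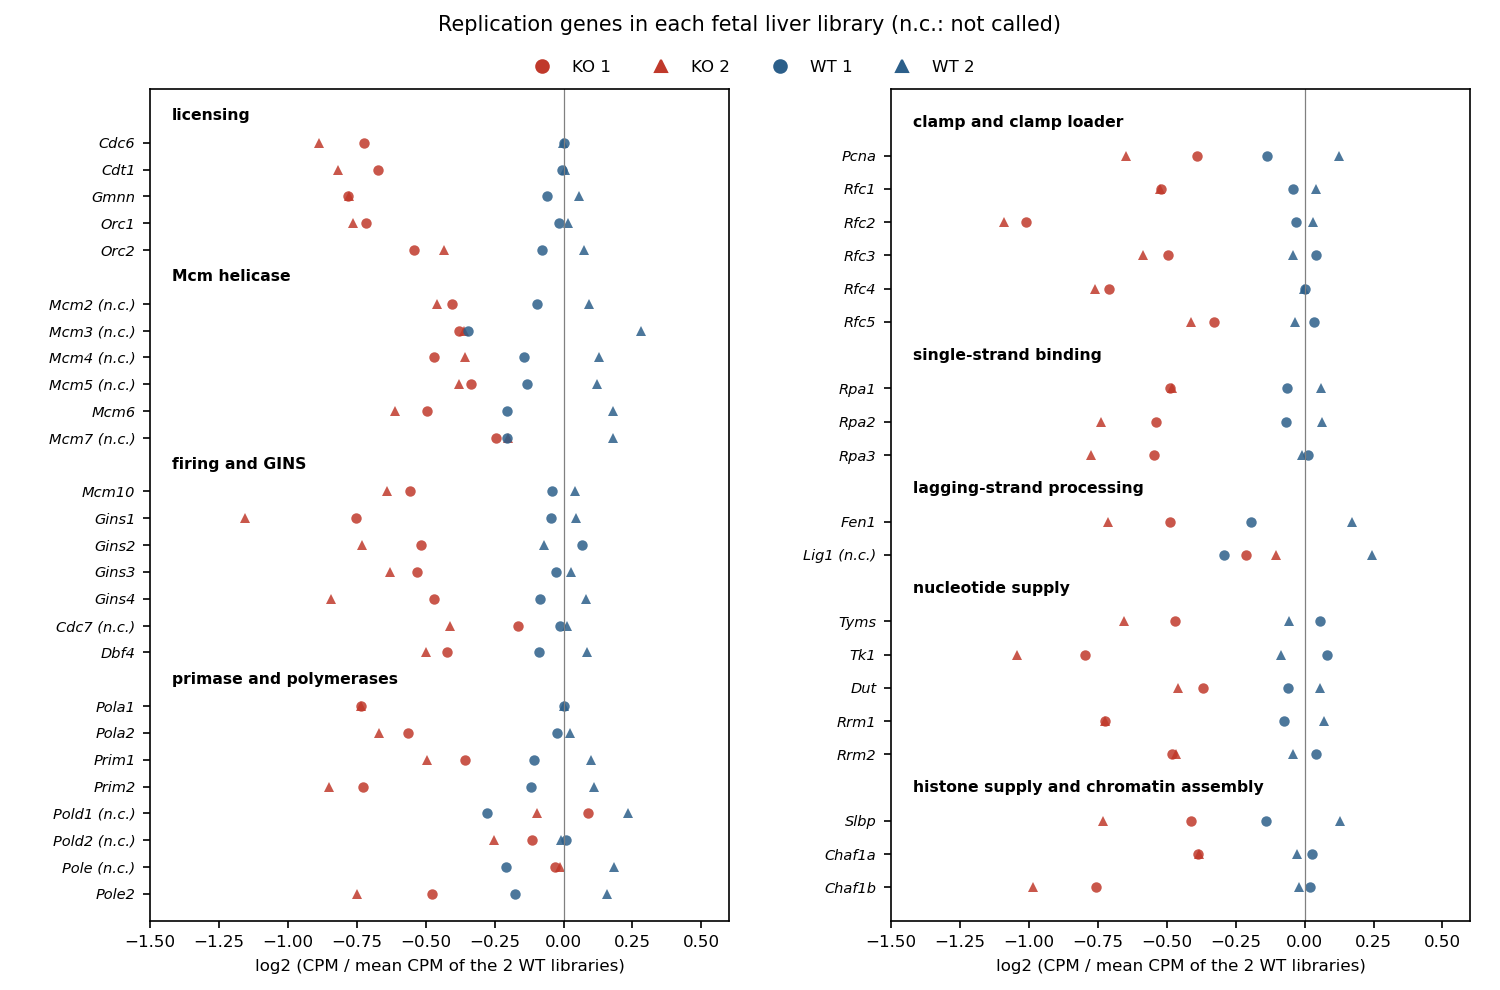
Level of each of the 45 replication genes in the 4 libraries, grouped by role, as log2 of CPM over the mean CPM of both WT libraries; red marks KO livers, blue marks WT livers, circles replicate 1 and triangles replicate 2, and n.c. marks the 10 genes not called. Red points lie left of blue points in 41 genes. Blue points are spread most widely in Mcm3, Lig1, Pold1, Pole, Mcm6, Mcm7, Fen1 and Pole2.

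Mapped reads per library numbered 97490949 and 96260423 in KO and 70020061 and 111324295 in WT, and 47700346 and 48162899 KO reads and 33738859 and 56895354 WT reads fell on the transcripts used. Any member had between 650 and 75445 reads in a library. The targeted gene Hnrnpl was at 279.6 and 269 CPM in KO livers, against 459.6 and 603 CPM in WT livers, or 51.6% of WT (log2 fold change -0.95, SE 0.16, edgeR adjusted p = 0.0115), so transcript remained in both KO livers. KO replicate 2 had 2839 reads of the Y-linked gene Ddx3y, against 5 in KO replicate 1 and 8 and 14 in WT livers. Xist, the RNA of the inactive X, had 45597 and 336 reads in KO livers and 31498 and 51618 in WT livers. By these genes KO replicate 2 alone was male, so sex differed between the KO livers and was not balanced between KO and WT. An effect of sex was not tested. WT replicate 1 had the fewest mapped reads and stood apart in putative junctions, with 152103 reads across them, against 48024 and 44924 in KO livers and 62959 in WT replicate 2. The files name no genome build. Positions of genes and junctions below are theirs, and they are not those of GRCm38, in which 138 of 19487 genes compared had the same start and end. The promoter windows below have GRCm38.p6 positions instead, so the 2 kinds of position cannot be compared.

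E2F factors bind the consensus written here as 4 words, TTTCCCGC, TTTCGCGC, TTTGCCGC and TTTGGCGC, which were searched on both strands from 250 bases before to 50 after each annotated start (RefSeq promoter windows, GRCm38.p6). Windows were matched for 37 of the 45 genes. At least 1 of the words was present in 13 of these 37 genes (35.1%), in 4.56% of the 11683 genes tested that had a window, and in 2.60% of all 27025 genes with one. It was present in 8 of the 29 genes called lower and 5 of the 8 not called that had a window, so the word was found on both sides of the call. The CCAAT box (CCAAT) was present in 22 of 37 genes (59.5%), against 42.6% of the genes tested. The cell-cycle element TTTGAA (CHR) was present in 6 of 37 (16.2%), against 14.6%. The median GC content of the windows was 60.2% in these genes and 60.3% in the genes tested. Some genes have several windows, and a match says only that the letters occur there.

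The windows of 5 genes are shown to let the words be seen beside genes with different responses: 4 were lower in KO livers (Cdc6, Orc1, Mcm6 and Pola1) and Pold1 was not called. All 5 are from the 13 genes with a word. They do not show how often words occur in genes called lower or not called. Capitals mark the E2F words on either strand, and each window reads 5′ to 3′ along its gene.
Cdc6 (chr11:98907901-98908200, plus strand): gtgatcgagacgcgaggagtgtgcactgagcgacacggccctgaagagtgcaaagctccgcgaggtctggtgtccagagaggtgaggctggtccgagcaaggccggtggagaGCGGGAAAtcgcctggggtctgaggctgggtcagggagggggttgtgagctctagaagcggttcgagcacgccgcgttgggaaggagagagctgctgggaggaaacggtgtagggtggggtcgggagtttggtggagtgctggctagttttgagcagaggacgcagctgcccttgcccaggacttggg
Orc1 (chr4:108579204-108579503, plus strand): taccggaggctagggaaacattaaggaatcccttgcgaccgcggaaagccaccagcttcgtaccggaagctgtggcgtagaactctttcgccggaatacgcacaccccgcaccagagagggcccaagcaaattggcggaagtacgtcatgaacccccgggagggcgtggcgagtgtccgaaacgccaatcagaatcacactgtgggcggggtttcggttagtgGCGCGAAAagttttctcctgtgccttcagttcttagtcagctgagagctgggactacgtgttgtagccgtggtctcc
Mcm6 (chr1:128359656-128359955, minus strand): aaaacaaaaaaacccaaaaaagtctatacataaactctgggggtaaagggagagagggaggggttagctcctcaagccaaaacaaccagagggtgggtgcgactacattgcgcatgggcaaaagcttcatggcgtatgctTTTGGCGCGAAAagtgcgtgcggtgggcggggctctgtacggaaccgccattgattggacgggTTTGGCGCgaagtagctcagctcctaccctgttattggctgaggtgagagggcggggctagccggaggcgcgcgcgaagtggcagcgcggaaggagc
Pola1 (chrX:93632106-93632405, minus strand): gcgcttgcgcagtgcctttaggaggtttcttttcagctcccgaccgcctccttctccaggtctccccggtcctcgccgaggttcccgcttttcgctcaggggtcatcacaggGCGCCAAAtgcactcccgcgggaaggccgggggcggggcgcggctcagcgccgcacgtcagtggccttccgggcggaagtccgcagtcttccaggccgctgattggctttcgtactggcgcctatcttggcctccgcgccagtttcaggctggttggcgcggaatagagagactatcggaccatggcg
Pold1 (chr7:44548766-44549065, minus strand): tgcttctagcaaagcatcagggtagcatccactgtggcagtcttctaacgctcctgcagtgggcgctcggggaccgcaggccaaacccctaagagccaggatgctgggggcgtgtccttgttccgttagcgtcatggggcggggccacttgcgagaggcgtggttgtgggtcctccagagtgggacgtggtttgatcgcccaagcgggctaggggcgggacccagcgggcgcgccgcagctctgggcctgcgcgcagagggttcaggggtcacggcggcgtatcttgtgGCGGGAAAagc
Mcm6 holds 3 matches, of which 2 overlap on opposite strands, and each of the other 4 windows holds 1.

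All 5 licensing genes were lower in KO livers, by similar proportions for 4 of them. Cdc6 (chromosome 11, 98769203 to 98785256), the ATPase that helps load the Mcm ring, was at 121 and 108 CPM in KO livers, against 200.2 and 199 CPM in WT livers. It fell to 57.3% of WT (log2 fold change -0.80, SE 0.11, edgeR adjusted p = 0.00826). Its loading partner Cdt1 was at 39.0 and 35.3 CPM in KO livers, against 62.0 and 62.5 CPM in WT livers. Geminin (Gmnn), the protein that binds Cdt1 and blocks relicensing, was at 42.9 and 43.1 CPM in KO livers, against 70.8 and 76.9 CPM in WT livers. The WT values of Cdc6 and Cdt1 nearly coincided, and for all 3 genes the KO and WT livers were well apart. Cdt1 stood at 59.7% of WT (edgeR adjusted p = 0.00911) and Gmnn at 58.2% (edgeR adjusted p = 0.00764), so the factor and its inhibitor were lower together. On RPKM, the authors' reads per kilobase of transcript scaled to mapped reads, the log2 ratio of Cdt1 to Gmnn was -1.30 and -1.45 in KO livers and -1.36 and -1.46 in WT livers, and the groups overlapped. Orc1, the largest subunit of the origin recognition complex, was at 68.2 and 66.0 CPM in KO livers, against 111 and 113 CPM in WT livers, and fell to 59.8% of WT (edgeR adjusted p = 0.00764). Orc2, another subunit, was at 155 and 167 CPM in KO livers, against 213 and 237 CPM in WT livers, a smaller fall, to 71.3% (edgeR adjusted p = 0.0296). The calls of Cdc6, Cdt1, Gmnn and Orc1 were kept whichever library was left out. That of Orc2 was lost whichever of the 4 libraries was left out (edgeR adjusted p up to 0.143). On reads across known splice junctions, a second count described further on, Cdt1 and Orc2 were not called, with log2 fold changes of -0.67 (edgeR adjusted p = 0.0632) and -0.40 (edgeR adjusted p = 0.107).

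Of the 6 genes of the Mcm2 to Mcm7 helicase, 1 was called lower, and all 6 had lower means in KO livers. Mcm6 (chromosome 1, 130228168 to 130256233) was at 307 and 283 CPM in KO livers, against 375 and 490.1 CPM in WT livers, and fell to 68.2% of WT (log2 fold change -0.55, SE 0.16, edgeR adjusted p = 0.0475), a call lost without KO replicate 1, KO replicate 2 or WT replicate 2 (edgeR adjusted p up to 0.261) and on known-junction reads (log2 fold change -0.50, edgeR adjusted p = 0.0688). Mcm2 was at 608 and 586 CPM in KO livers, against 752 and 857 CPM in WT livers. Mcm4 was at 192 and 208 CPM in KO livers, against 241 and 291 CPM in WT livers. Mcm5 was at 547 and 529 CPM in KO livers, against 628 and 750.5 CPM in WT livers. In each of these 3 genes both KO livers were below both WT livers, and the WT livers were further from each other than the KO livers were. Their log2 fold changes were -0.43 (edgeR adjusted p = 0.0733) for Mcm2, -0.41 (edgeR adjusted p = 0.0668) for Mcm4 and -0.36 (edgeR adjusted p = 0.127) for Mcm5. DESeq2 called these 3 as lower, with adjusted p of 0.00805, 0.0230 and 0.0431. Mcm3 was at 144 and 146 CPM in KO livers, against 148 and 228 CPM in WT livers, where WT replicate 1 lay close to the KO livers. Mcm3 was not called (edgeR adjusted p = 0.203), but passed without WT replicate 1, with a log2 fold change of -0.65 in place of -0.37 (edgeR adjusted p = 0.0341), and stood at -0.02 without WT replicate 2. Mcm7, whose introns hold the microRNA genes Mir25, Mir93 and Mir106b, was at 232 and 239.6 CPM in KO livers, against 239 and 311 CPM in WT livers, and the groups overlapped (log2 fold change -0.22, SE 0.15, edgeR adjusted p = 0.323). Summed over the 6 genes, the level was 2030.2 and 1992 CPM in KO livers and 2383 and 2928 CPM in WT livers.

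Of the 7 genes that activate the loaded helicase, 6 were lower in KO livers. Gins1 (chromosome 2, 150735330 to 150757016), a subunit of the 4-part GINS complex, was at 26.2 and 19.8 CPM in KO livers, against 42.8 and 45.6 CPM in WT livers. It fell to 52.1% of WT (log2 fold change -0.94, SE 0.15, edgeR adjusted p = 0.0108), and KO replicate 2 was the lowest library. Gins2 was at 35.2 and 30.3 CPM in KO livers, against 52.8 and 48.0 CPM in WT livers. Gins3 was at 20.7 and 19.3 CPM in KO livers, against 29.4 and 30.5 CPM in WT livers. Gins4 was at 58.3 and 45.0 CPM in KO livers, against 76.0 and 85.4 CPM in WT livers. These 3 subunits fell to 65.1%, 66.9% and 64.0% of WT (edgeR adjusted p = 0.0179, 0.0190 and 0.0239), with no overlap between the groups. Mcm10, which helps start unwinding at origins, was at 132 and 124 CPM in KO livers, against 188 and 199 CPM in WT livers, and fell to 66.1% of WT (edgeR adjusted p = 0.0145). Dbf4, the subunit that activates the kinase Cdc7, was at 98.3 and 93.2 CPM in KO livers, against 124 and 139.5 CPM in WT livers, and fell to 72.7% (edgeR adjusted p = 0.0295). Cdc7 itself was at 58.9 and 49.6 CPM in KO livers, against 65.4 and 66.7 CPM in WT livers, and did not pass (log2 fold change -0.28, SE 0.12, edgeR adjusted p = 0.128). The difference between the kinase and its activator was not tested. The call of Gins1 was kept whichever library was left out. Those of Mcm10 and Gins4 were lost without KO replicate 2 or WT replicate 2, that of Gins2 without KO replicate 2 or WT replicate 1, that of Gins3 without KO replicate 2, WT replicate 1 or WT replicate 2, and that of Dbf4 without KO replicate 1, KO replicate 2 or WT replicate 2 (edgeR adjusted p up to 0.146). On known-junction reads Gins2, Gins3 and Dbf4 were not called, with log2 fold changes of -0.28 (edgeR adjusted p = 0.493), -0.44 (edgeR adjusted p = 0.407) and -0.14 (edgeR adjusted p = 0.674).

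Among the 8 polymerase and primase genes, all 4 subunits of polymerase alpha-primase were lower in KO livers, while the catalytic subunits of polymerases delta and epsilon were not called. Pola1, the catalytic subunit of polymerase alpha and an X-linked gene, was at 69.9 and 69.8 CPM in KO livers, against 116 and 116 CPM in WT livers. The 2 libraries of each group almost coincided, although KO replicate 2 was the 1 library with Ddx3y reads well above 0. Pola1 fell to 60.1% of WT (log2 fold change -0.73, SE 0.10, edgeR adjusted p = 0.00764). Its partner Pola2 was at 119 and 110.3 CPM in KO livers, against 172 and 178 CPM in WT livers. The large primase subunit Prim2 was at 62.7 and 57.6 CPM in KO livers, against 95.5 and 112 CPM in WT livers. The catalytic primase subunit Prim1 was at 90.1 and 81.9 CPM in KO livers, against 107 and 124 CPM in WT livers. Pola2 and Prim2 stood at 65.3% and 58.0% of WT (edgeR adjusted p = 0.0129 and 0.00984), and Prim1 at 74.5% (edgeR adjusted p = 0.0432). Pold1 (chromosome 7, 51788114 to 51804185), the catalytic subunit of polymerase delta, was at 113 and 99.0 CPM in KO livers, against 87.2 and 124 CPM in WT livers, with both KO livers between the WT livers (log2 fold change -0.00097, SE 0.17, edgeR adjusted p = 0.997). Its partner Pold2 was at 90.8 and 82.5 CPM in KO livers, against 98.8 and 97.7 CPM in WT livers (log2 fold change -0.18, edgeR adjusted p = 0.255). Pole, the catalytic subunit of polymerase epsilon, was at 146 and 148 CPM in KO livers, against 129 and 169.6 CPM in WT livers, and here too both KO livers lay between the WT livers (log2 fold change -0.02, SE 0.15, edgeR adjusted p = 0.931). Pole2, the second subunit of the same enzyme, was at 44.7 and 37.1 CPM in KO livers, against 55.2 and 69.5 CPM in WT livers, and fell to 65.6% of WT (edgeR adjusted p = 0.0310). Without WT replicate 2 the log2 fold changes of Pold1 and Pole were 0.28 and 0.19, and without WT replicate 1 they were -0.23 and -0.21, so neither gene had a stable direction. The calls of Pola1 and Prim2 were kept whichever library was left out. That of Pola2 depended on KO replicate 2 (edgeR adjusted p = 0.0566 without it), that of Pole2 was lost without KO replicate 2 or WT replicate 2, and that of Prim1 whichever of the 4 libraries was left out (edgeR adjusted p up to 0.213) and on known-junction reads (log2 fold change -0.45, edgeR adjusted p = 0.0898).

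**Figure D2:**
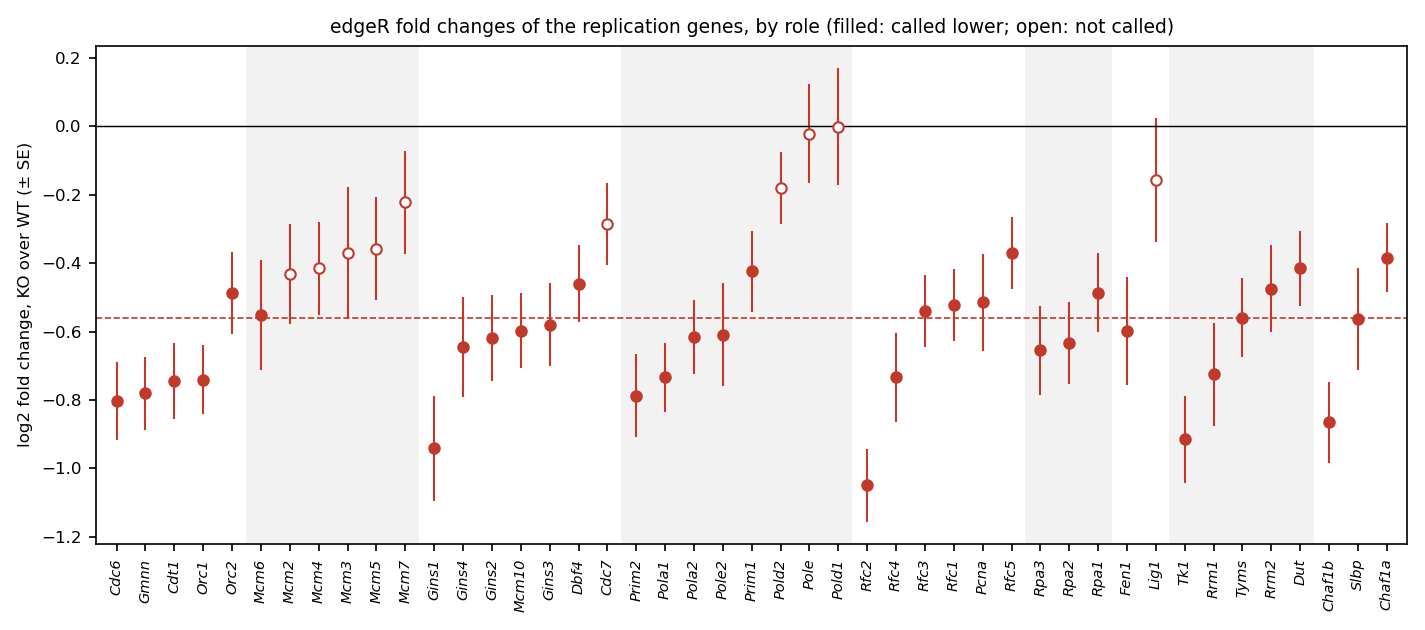
Fitted log2 fold change of KO over WT for each of the 45 genes, ordered by role (shaded blocks, from licensing on the left to chromatin assembly on the right) and size, with bars of 1 standard error; filled points were called lower, open points were not called, and the dashed line is the median of -0.56. Open points are found in the helicase genes, Cdc7, Pold1, Pold2, Pole and Lig1.

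The sliding clamp and all 5 subunits of replication factor C, the complex that loads it, were lower in KO livers, and Rfc2 had the largest fall of the 45 genes. Rfc2 (chromosome 5, 135058560 to 135074198) was at 76.7 and 72.4 CPM in KO livers, against 151 and 158 CPM in WT livers, or 74.6 ± 3.00 CPM in KO livers and 154 ± 4.50 CPM in WT livers (SD, n = 2 each). It fell to 48.3% of WT (log2 fold change -1.05, SE 0.11, edgeR adjusted p = 0.00449). Rfc1, the large subunit, was at 98.6 and 98.3 CPM in KO livers, against 137 and 145 CPM in WT livers. Rfc3 was at 50.4 and 47.4 CPM in KO livers, against 73.2 and 69.0 CPM in WT livers. Rfc4 was at 13.6 and 13.1 CPM in KO livers, against 22.2 and 22.2 CPM in WT livers. In these 3 the groups were apart and the replicates of a group close together, and the genes fell to 69.6%, 68.8% and 60.1% of WT (edgeR adjusted p = 0.0171, 0.0168 and 0.0132). Rfc5 was at 57.5 and 54.3 CPM in KO livers, against 74.0 and 70.5 CPM in WT livers, the smallest fall called, to 77.4% (edgeR adjusted p = 0.0439). Rfc4 overlaps Eif4a2, a gene with more reads, on the other strand by 185 bases of its span, and counting by strand is not stated. Pcna was at 146 and 122 CPM in KO livers, against 174 and 209 CPM in WT livers, and fell to 70.0% of WT (edgeR adjusted p = 0.0412). The call of Rfc2 was kept whichever library was left out. Those of Rfc1, Rfc4 and Pcna were lost without KO replicate 2 or WT replicate 2 (edgeR adjusted p up to 0.187), that of Rfc3 without KO replicate 2, WT replicate 1 or WT replicate 2, and that of Rfc5 whichever of the 4 libraries was left out (edgeR adjusted p up to 0.169). On known-junction reads Rfc1, Rfc3 and Rfc5 were not called, with log2 fold changes of -0.38 (edgeR adjusted p = 0.120), -0.52 (edgeR adjusted p = 0.0535) and -0.25 (edgeR adjusted p = 0.289).

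The 3 subunits of replication protein A, which coats single-stranded DNA at forks, were all lower in KO livers. Rpa1 was at 185 and 186 CPM in KO livers, against 249 and 272 CPM in WT livers. Rpa2 was at 110.1 and 95.9 CPM in KO livers, against 152 and 167 CPM in WT livers. Rpa3 was at 21.9 and 18.7 CPM in KO livers, against 32.2 and 31.8 CPM in WT livers. They fell to 71.4%, 64.4% and 63.5% of WT (edgeR adjusted p = 0.0278, 0.0152 and 0.0171), with no overlap between the groups. The call of Rpa2 was lost without KO replicate 2 or WT replicate 2, that of Rpa3 without KO replicate 2, WT replicate 1 or WT replicate 2, and that of Rpa1 whichever of the 4 libraries was left out (edgeR adjusted p up to 0.139). On known-junction reads Rpa1 and Rpa3 were not called, with log2 fold changes of -0.50 (edgeR adjusted p = 0.0501) and -0.20 (edgeR adjusted p = 0.586), and the groups of Rpa3 overlapped. Of the 2 enzymes that finish lagging-strand fragments, the flap nuclease Fen1 was at 208 and 178 CPM in KO livers, against 255 and 329 CPM in WT livers, and fell to 66.1% of WT (edgeR adjusted p = 0.0369), a call lost without KO replicate 2 or WT replicate 2 (edgeR adjusted p up to 0.181). DNA ligase 1 (Lig1) was at 243 and 262 CPM in KO livers, against 230.0 and 334 CPM in WT livers, with both KO livers between the WT livers (log2 fold change -0.16, SE 0.18, edgeR adjusted p = 0.566).

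All 5 genes of nucleotide supply were lower in KO livers. Tk1 (chromosome 11, 117676833 to 117687328), the thymidine kinase of dividing cells, was at 54.0 and 45.5 CPM in KO livers, against 99.2 and 88.5 CPM in WT livers. It fell to 53.0% of WT (log2 fold change -0.91, SE 0.13, edgeR adjusted p = 0.00802). Rrm1, the large subunit of ribonucleotide reductase and the gene with the highest mean RPKM of the 45, was at 781 and 781 CPM in KO livers, against 1226 and 1358 CPM in WT livers. Its partner Rrm2 was at 360.1 and 363 CPM in KO livers, against 517 and 488 CPM in WT livers. The 2 KO livers almost coincided for both subunits, and Rrm1 fell to 60.5% and Rrm2 to 72.0% of WT (edgeR adjusted p = 0.0187 and 0.0386). Thymidylate synthase (Tyms) was at 90.0 and 79.2 CPM in KO livers, against 129 and 119.9 CPM in WT livers. Dut, the enzyme that removes dUTP, was at 115 and 108 CPM in KO livers, against 143 and 155 CPM in WT livers. Tyms fell to 67.9% of its WT level and Dut to 75.0% (edgeR adjusted p = 0.0183 and 0.0361). The call of Tk1 was kept whichever library was left out. That of Rrm1 was lost without KO replicate 2 or WT replicate 2, that of Tyms without KO replicate 2 or WT replicate 1, and those of Rrm2 and Dut whichever of the 4 libraries was left out (edgeR adjusted p up to 0.164). Rrm2 and Dut were not called on known-junction reads either, with log2 fold changes of -0.40 (edgeR adjusted p = 0.147) and -0.33 (edgeR adjusted p = 0.211).

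The genes that supply histones to new DNA were lower too. Chaf1b (chromosome 16, 93884146 to 93906351), a subunit of chromatin assembly factor 1, was at 77.1 and 65.9 CPM in KO livers, against 132 and 129 CPM in WT livers. It fell to 54.9% of WT (log2 fold change -0.87, SE 0.12, edgeR adjusted p = 0.00756), a call kept whichever library was left out. The large subunit Chaf1a was at 79.4 and 79.4 CPM in KO livers, against 106 and 102 CPM in WT livers, a smaller fall, to 76.6% (edgeR adjusted p = 0.0360). Slbp, which binds the stem-loop of histone messenger RNAs, was at 128 and 103 CPM in KO livers, against 155 and 186 CPM in WT livers, and fell to 67.7% of WT (edgeR adjusted p = 0.0367). The call of Slbp was lost without KO replicate 2 or WT replicate 2, and that of Chaf1a whichever of the 4 libraries was left out (edgeR adjusted p up to 0.155) and on known-junction reads (log2 fold change -0.44, edgeR adjusted p = 0.134).

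The WT livers differed widely in some of the genes. The ratio of WT replicate 2 to WT replicate 1 in CPM had a median of 1.26 over the 10 genes not called (0.989 to 1.54) and 1.06 over the 35 called lower (0.892 to 1.31). It was 1.54 for Mcm3, 1.45 for Lig1, 1.42 for Pold1 and 1.31 for Pole, none of them called, and 1.31 for Mcm6, 1.29 for Fen1 and 1.26 for Pole2, all called. Of the 11 genes above 1.2, 6 were not called and 5 were called lower, and Cdc7 and Pold2, also not called, were at 1.02 and 0.989. This difference is part of what the test weighs, so it describes the calls and is no separate result.

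Levels per length, as RPKM on the transcript used for each gene, were unequal within complexes. In the Mcm ring Mcm2 was highest, with 88.6 and 92.6 RPKM in KO livers and 103 and 127 RPKM in WT livers, and Mcm3 lowest, with 24.5 and 27.0 RPKM in KO livers and 23.6 and 39.4 RPKM in WT livers. The ratio of the highest to the lowest subunit was 3.52 in KO livers and 3.65 in WT livers. In replication factor C, Rfc2 was highest, with 24.8 and 25.4 RPKM in KO livers and 45.9 and 51.8 RPKM in WT livers, and Rfc4 lowest, with 5.48 and 5.75 RPKM in KO livers and 8.43 and 9.11 RPKM in WT livers, a ratio of 4.47 in KO livers and 5.57 in WT livers. In GINS, Gins4 was highest and Gins3 lowest, with a ratio of 4.54 in KO livers and 4.77 in WT livers. In polymerase alpha-primase, Pola1 was lowest in all 4 libraries, and Prim1 was highest in all but WT replicate 1, where Pola2 stood at 32.8 RPKM and Prim1 at 32.2 RPKM. The ratio of mean Prim1 to mean Pola1 was 4.29 in KO livers and 3.47 in WT livers. The order of subunits can differ by the count used. Rfc2 and Rfc5 have 10 known junctions each. Per 1e+06 known-junction reads, Rfc5 was at 173 and 182 in KO livers and 201 and 200 in WT livers. Rfc2 was lower in each library, at 91.9 and 109.6 in KO livers and 149 and 180.2 in WT livers.

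**Figure D3:**
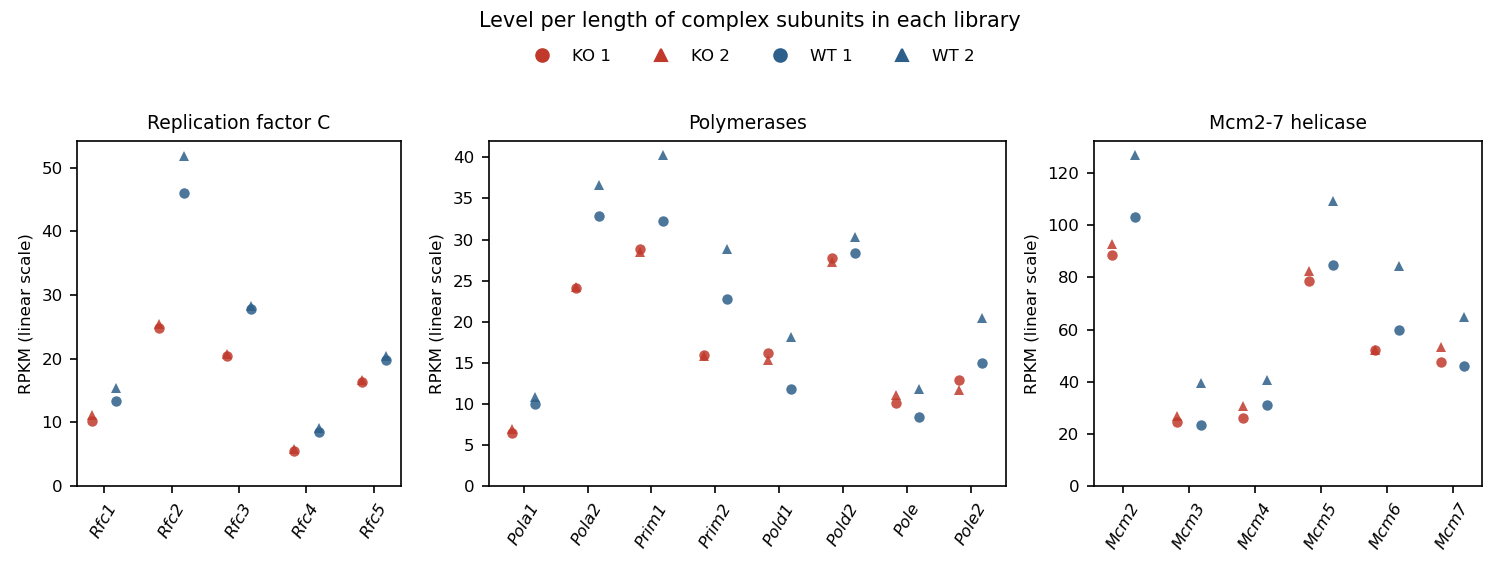
RPKM of the subunits of replication factor C, the replicative polymerases and the Mcm ring in each library, on linear axes from 0; red marks KO livers, left of blue WT livers, circles replicate 1 and triangles replicate 2. On RPKM, Rfc2 is highest in its complex in all 4 libraries, and the KO points of Pold1 and Pole lie between the WT points.

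Ratios of 2 genes in the same library do not depend on how libraries are scaled. The log2 RPKM ratio of Rfc2 to Rfc5 was 0.60 and 0.60 in KO livers and 1.22 and 1.35 in WT livers, so Rfc2 was lower relative to Rfc5 in both KO livers. The log2 ratio of Pole to Pole2 was -0.36 and -0.08 in KO livers and -0.85 and -0.78 in WT livers, and that of Chaf1a to Chaf1b was -0.75 and -0.52 in KO livers and -1.11 and -1.13 in WT livers, with the first gene of each pair relatively higher in both KO livers. The log2 ratio of Rrm1 to Rrm2 was 0.24 and 0.23 in KO livers and 0.37 and 0.60 in WT livers, and that of Prim1 to Prim2 was 0.86 and 0.85 in KO livers and 0.50 and 0.48 in WT livers. These 5 ratios were picked after the values were seen. Of all 47 ratios of subunits in a complex, 30 had groups that did not overlap, so this does not set the 5 apart. These were 9 of 10 in replication factor C and 7 of 15 in the Mcm ring. For single genes, the groups did not overlap in CPM in 65.2% of all genes tested, either direction counted. Ratios of gene pairs outside these complexes were not counted. The groups overlapped for Pold1 to Pold2, with log2 ratios of -0.78 and -0.83 in KO livers and -1.27 and -0.74 in WT livers. On known-junction reads, the groups stayed apart in the ratios of Rfc2 to Rfc5, Pole to Pole2 and Prim1 to Prim2. They overlapped in those of Chaf1a to Chaf1b and of Rrm1 to Rrm2. Per 1e+06 such reads, Chaf1a was at 48.5 and 52.9 in KO livers and 72.4 and 58.0 in WT livers. Chaf1b was at 58.9 and 56.2 in KO livers and 84.9 and 104.7 in WT livers. No ratio was tested, since 0.333 is the smallest two-sided p that an exact permutation test of 2 libraries against 2 can give.

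Reads across known splice junctions gave a second count from the same libraries. On these reads 44 of the 45 genes had a negative fold change, and 20 were called lower and 0 higher, where 10.6% of 11247 genes were called in either direction, 4.40% as lower and 6.19% as higher (edgeR, adjusted p under 0.05). All 20 were among the 35 called on transcript reads, and the 15 lost were Cdt1, Orc2, Mcm6, Dbf4, Gins2, Gins3, Prim1, Rfc1, Rfc3, Rfc5, Rpa1, Rpa3, Rrm2, Dut and Chaf1a. Gins1 was at 37.6 and 23.6 in KO livers, against 58.9 and 62.7 in WT livers, in reads per 1e+06 known-junction reads (log2 fold change -1.05, edgeR adjusted p = 0.0123). Rfc2 was at 91.9 and 109.6 in KO livers, against 149 and 180.2 in WT livers (log2 fold change -0.79, edgeR adjusted p = 0.00708), a smaller difference than on its transcript reads. Rpa3, whose 3 known junctions had 185 and 206 reads in KO livers and 157 and 244 reads in WT livers, was at 25.9 and 29.7 in KO livers, against 32.2 and 28.3 in WT livers on this scale (log2 fold change -0.20, edgeR adjusted p = 0.586), where the groups overlapped. Dbf4 was at 90.2 and 94.1 in KO livers, against 78.4 and 113 in WT livers on this scale (log2 fold change -0.14, edgeR adjusted p = 0.674), also with overlap. Gins2, which overlaps Gse1 on the other strand, had a log2 fold change of -0.28 on junction reads and -0.62 on transcript reads. Pold1 was the 1 gene with a positive value, 0.13.

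**Figure D4:**
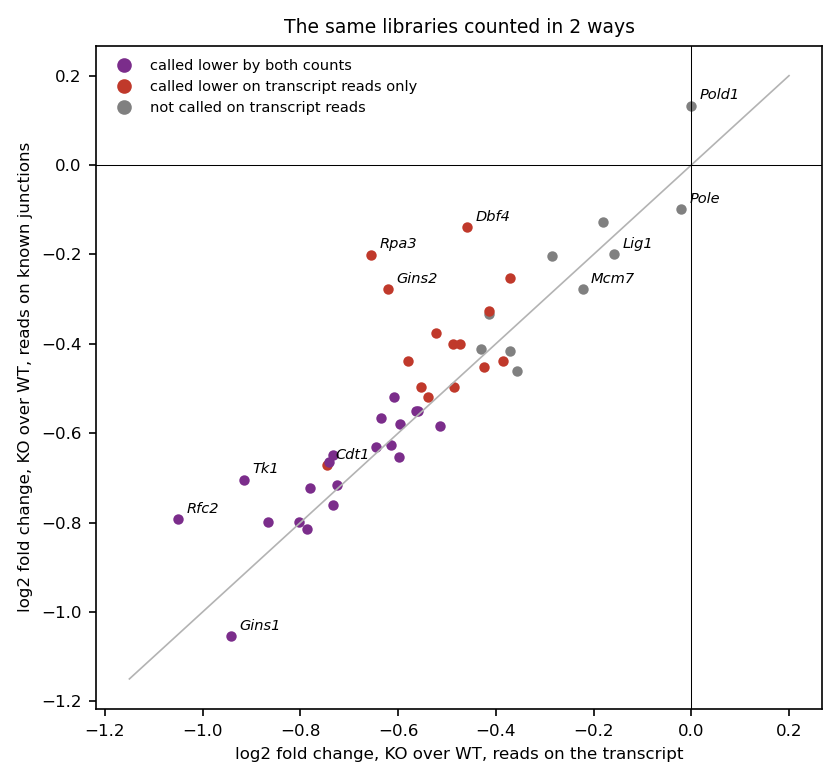
Log2 fold change of KO over WT for each of the 45 genes from reads on the transcript (horizontal axis) and from reads across its known junctions (vertical axis), with the line of equality; purple genes were called lower by both counts, red on transcript reads only, and grey not on transcript reads. Most genes lie near the line, with Rpa3, Gins2, Dbf4 and Rfc2 above it.

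No junction of these genes passed a test of changed usage. Of 601 tested junctions in 44 of the genes (584 known and 17 putative), 0 passed by diffSpliceDGE of edgeR, where 4 of 105454 junctions over all genes passed (0.00379%; 0.00284% with less usage in KO livers and 0.000948% with more). At an unadjusted p under 0.05 there were 5 of 601 (0.832%), beside 2.46% of all junctions. The smallest p was that of a Dbf4 junction (chromosome 5, from 8408563 to 8410010 on the minus strand), chosen here after its value was seen. It took 7.08% and 11.6% of the junction reads of Dbf4 in KO livers, against 3.64% and 4.00% in WT livers (46, 76, 14 and 39 reads in KO replicates 1 and 2 and WT replicates 1 and 2; diffSpliceDGE adjusted p = 1.00). The groups did not overlap, but the call was far from the threshold. With few calls over all genes, a missing call says little about changes of splicing, whether small or as large as at this junction. For 9 of the genes the files list several transcripts, with close read counts except in Gins1 and Orc2. The Gins1 transcript not used had 529 and 340 reads in KO livers and 540 and 1176 in WT livers. The one used had 1255 and 1017 reads in KO livers and 1383 and 2532 in WT livers. Reads shared by transcripts count for each of them, so their ratios were not read as isoform use, which was not tested.

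Other genes of the replication pathway moved the same way in most cases. Of 47 such genes, 26 were lower in KO livers, 1 was higher and 20 did not pass, with a median log2 fold change of -0.46. Over all genes tested, 9.44% were called lower and 11.4% higher. Lower genes included Dck, the deoxycytidine kinase, which was at 108 and 95.5 CPM in KO livers, against 186 and 203 CPM in WT livers (52.3% of WT, edgeR adjusted p = 0.00705). The fork checkpoint mediator Clspn was at 89.3 and 87.7 CPM in KO livers, against 148 and 154 CPM in WT livers (58.7% of WT, edgeR adjusted p = 0.00755). The histone chaperone Asf1b was at 133 and 135 CPM in KO livers, against 236 and 218 CPM in WT livers (59.1% of WT, edgeR adjusted p = 0.00884). The RNase H2 subunits Rnaseh2b and Rnaseh2a were at 60.7% and 63.6% of WT, the polymerase delta subunit Pold3 at 63.9%, and Dscc1, of an alternative clamp loader, at 48.4% (edgeR adjusted p = 0.00998, 0.0116, 0.0117 and 0.0136). The 1 higher gene was Shmt1, a folate enzyme of thymidylate supply, which was at 89.1 and 99.3 CPM in KO livers, against 61.8 and 62.5 CPM in WT livers (log2 fold change 0.60, SE 0.11, edgeR adjusted p = 0.0137). Its call was lost without KO replicate 2 or WT replicate 2 (edgeR adjusted p up to 0.0565). The calls of Dck, Clspn, Asf1b and Rnaseh2b were kept whichever library was left out, those of Rnaseh2a and Pold3 were lost without WT replicate 2, and that of Dscc1 without KO replicate 2 or WT replicate 2. Fewer of the 47 genes were called lower in each fit that left out 1 library, as was the case over all genes tested.

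Genes of G2 and mitosis were lower as well: of 25, 20 were called lower and 0 higher, with a median log2 fold change of -0.64. The shares over all genes tested were 9.44% lower and 11.4% higher. Fewer of the 25 were called lower whichever library was left out, as was the case over all genes tested. No test set the replication genes against these genes, so no difference between the groups is claimed.

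Markers of blood and liver cell types moved in the same libraries, where 9.44% of all genes tested were called lower and 11.4% higher. Erythroid markers, which were abundant in all 4 libraries, were lower for 8 of 12 genes and higher for 0. Their summed level was 17554 and 13457 CPM in KO livers and 26213 and 26109 CPM in WT livers, and their median log2 fold change was -0.75. Hepatocyte markers were higher for 4 of 12 genes and lower for 0, with sums of 87408 and 72484 CPM in KO livers and 57672 and 41960.3 CPM in WT livers. Megakaryocyte and platelet markers were higher for 6 of 8, with sums of 1168 and 967 CPM in KO livers and 614 and 663 CPM in WT livers, granulocyte markers higher for 4 of 8, with sums of 1276 and 973 CPM in KO livers and 733 and 619 CPM in WT livers, and endothelial markers higher for 5 of 8, with sums of 833 and 889 CPM in KO livers and 515 and 568 CPM in WT livers. Of 8 stem and progenitor markers 4 were higher and 1 lower, with sums of 376 and 387 CPM in KO livers and 352 and 382 CPM in WT livers, and of 7 tested macrophage markers 1 was higher and 2 lower, with sums of 439.9 and 363 CPM in KO livers and 509.8 and 385 CPM in WT livers. All 8 cardiac muscle markers were lower, with sums of 3.72 and 6.34 CPM in KO livers and 56.6 and 271 CPM in WT livers, and among the markers of these lists only Nppa had a library at 0 reads. The summed level of the replication genes over that of the erythroid markers was 0.371 and 0.465 in KO livers and 0.326 and 0.370 in WT livers. Slc4a1 and Tfrc made up most of the erythroid sum. Single erythroid markers stood between 48.4% (Spna1) and 78.1% (Kel) of WT, beside 70.2% for the sum of the replication genes. The part of cell-type composition in the lower replication genes was not tested.

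**Figure D5:**
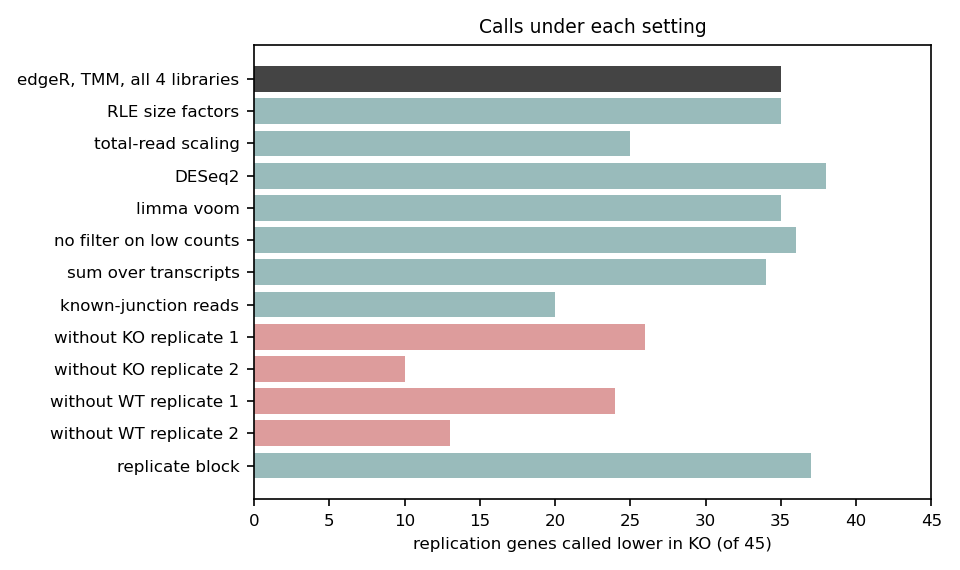
Number of the 45 replication genes called lower in KO livers (adjusted p under 0.05) under each setting, on an axis from 0 to 45; the dark bar is the test used here, pink bars leave out 1 library, and the others change the scaling, tool, filter, count or block. The count is highest with DESeq2, at 38, a setting that called 1769 of all genes tested lower, in place of 1419. It is lowest when KO replicate 2 is left out, the setting with the fewest lower calls over all genes tested too.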

How the data were processed

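RNA was sequenced from 2 KO and 2 WT fetal livers. Per the labels' protocols, total RNA was depleted of ribosomal RNA and cut with RNase III, libraries had 12 cycles of PCR, and the 4 barcoded libraries were run on 2 slides. The sources used here do not tie libraries to slides, so it is not known whether slide and genotype coincide, and a slide effect was not tested. Per the file headers, the authors counted reads per RefSeq transcript from primary alignments, keeping mapping qualities from 10 up. The deposited RPKM values use mapped reads, and the deposited reads per base, a coverage signal, is count over length; both were recomputed in 100% of rows. The deposited junction tables hold raw counts of reads for 186874 known and 1734753 putative junctions. Neither aligner nor build is stated there (not given in the sources used here).

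Counts per gene were tested with edgeR 4.0.16 in R 4.3.3 (TMM scaling, filterByExpr, quasi-likelihood test), with Benjamini-Hochberg adjustment over 15029 genes and a threshold of 0.05. Standard errors are the log2 fold change over the square root of F. Junction usage was tested with diffSpliceDGE on junctions with at least 10 reads in genes with at least 2 of them. Alternatives used DESeq2 1.42.0, limma 3.58.1, other scalings, filters and counts, a replicate block, and each library left out. Scripts were tested on simulated data. The members and lists were chosen with earlier results of these data known, and counts over them are descriptions. Named genes were every member, the 8 other replication genes with the smallest p among those called, and any called in the minority direction.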

Additional observations from a re-analysis of the deposited data

How the results depend on the processing

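With 2 libraries a group, single calls depend on each library. Of the 35 genes called lower, 10 kept the call in all 4 fits that left out a library, 7 kept it in none of them, and 9 kept it in all 12 alternatives; among the 10, Cdt1 was lost on known-junction reads. No direction of a called gene reversed. Leaving out 1 library gave 10 to 26 replication genes, 4 to 22 other replication genes and 8 to 18 G2/M genes called lower, 0 to 1 other replication genes called higher, and 338 to 1187 genes lower and 648 to 1308 higher over all genes tested. Median log2 fold changes were then -0.64 to -0.48, -0.50 to -0.39 and -0.68 to -0.55 for the 3 lists. On known-junction reads, which test fewer genes at lower depth, 20 replication genes, 13 other replication genes and 495 of all genes were lower and 696 higher. With total-read scaling the medians of the other replication and G2/M genes were -0.37 and -0.54. Calls of junction usage numbered 0 in all 7 alternatives.

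The labels give no pairing, but KO and WT file names share a number. Deviations from the group means of same-numbered libraries correlated at 0.14 over 15029 genes, from 2 pairs. With this number as a replicate block, 37 replication genes, 29 other replication genes and 20 G2/M genes were lower, and over all genes 1998 were lower and 2337 higher; the block lost no call among the members, and added Mcm2 and Mcm4. Summing the transcripts of a gene lost the call of Rfc5 (34 genes lower, beside 1375 over all genes tested). It counts shared reads more than once, and moved the highest RPKM in 5 of 9 role groups.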
